A study of Mus musculus with 12 samples.

Results

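Oligodendrocyte precursor cells (OPCs) of the mouse hippocampus were examined in single-cell RNA-sequencing data from animals given the chemotherapy agent cisplatin, with or without sensory stimulation. The cells described here carried the authors' cell type label OPC and lay in cluster 9 of the authors' Leiden clustering. They numbered 728 of 19834 cells (3.67%) and made up 81.4% of the 894 cells labelled OPC, while the other 166 lay in cluster 18. A second label, the authors' original cell type, was OPC for 678 of the 728. OPCs are the dividing glial progenitors that persist in the adult brain and give rise to the oligodendrocytes that wrap axons in myelin. They depend on signalling through the PDGF receptor encoded by Pdgfra, receive synaptic input from neurons, and secrete chondroitin sulfate proteoglycans into the extracellular matrix. On leaving the cycle they pass through a committed stage marked by the receptor Gpr17 before they switch on the myelin genes.

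All libraries came from hippocampi of female C57/BL6J mice labelled 9 weeks old, and no transgene is named. Cisplatin crosslinks DNA, and its injection is a model of the cognitive impairment that follows chemotherapy. Injection controls received PBS. The stimulation (GENUS) was a 40 Hz train of light flicker and sound pulses, given for 1 h on each of 21 days from the first injection, with tissue taken on day 22. There were 4 groups of 3 libraries each. They are called PBS nonstim and PBS stim for the injection controls, and Cisplatin nonstim and Cisplatin stim for the treated mice. In every group, replicate 1 was prepared from the 2 hippocampi of 1 animal and carried the library prefix of a first batch, whereas replicates 2 and 3 each pooled 4 hippocampi from 2 animals and carried the prefix of a second batch. Batch and the number of animals pooled therefore cannot be told apart, and a library is the unit of replication throughout.

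The number of cluster 9 OPCs per library was 61, 155 and 76 in PBS nonstim, 36, 63 and 65 in PBS stim, 100, 43 and 30 in Cisplatin nonstim, and 41, 23 and 35 in Cisplatin stim. Their summed unique molecular identifiers (UMIs) ranged from 180181 (Cisplatin stim 2) to 996296 (PBS nonstim 2). The median cell held 7216 UMIs and 3326 genes. Several libraries stood apart. Cells of PBS stim 3 had a median of 2931 UMIs and 28.4% unspliced reads, the lowest of the 12 libraries in both. In the first batch, over 10% mitochondrial UMIs were found in 18 of 61 cluster 9 cells of PBS nonstim, 11 of 36 of PBS stim, 50 of 100 of Cisplatin nonstim and 24 of 41 of Cisplatin stim, against at most 10.0% of the cells of any second-batch library. Transcripts that take in ribosomal RNA reads (Gm42418, AY036118 and Lars2) made up 1.58 to 3.18% of UMIs in 4 libraries, which were PBS nonstim 2 and 3 and PBS stim 2 and 3, and 0.271 to 0.585% in the other 8, so within the second batch this share followed the treatment. No cell barcode was shared between libraries within cluster 9, whereas 112 cells of the whole series (0.565%) shared one. None of the 728 cells was marked as a doublet, and the highest doublet score was 0.0772.

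**Figure D1:**
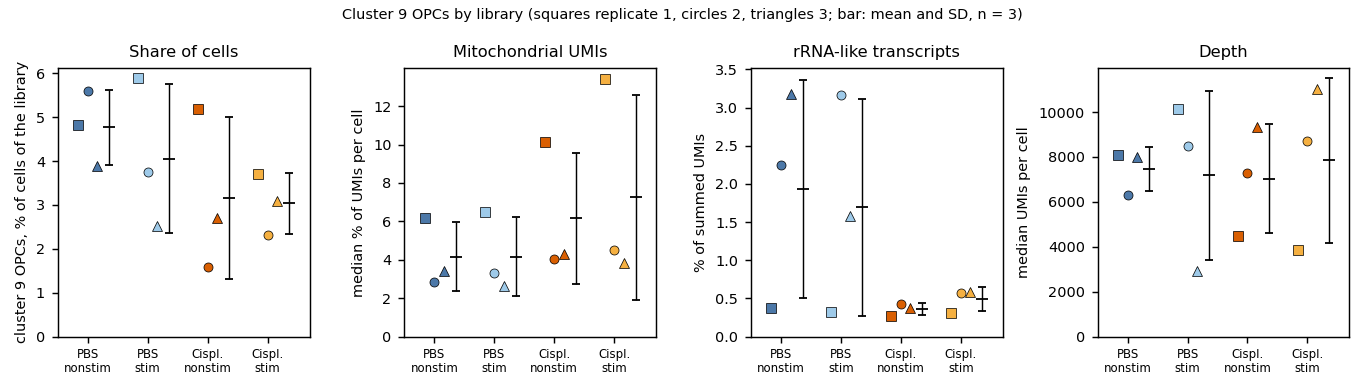
Share of cluster 9 OPCs among all cells, median mitochondrial share, share of ribosomal RNA-like transcripts and median UMIs per cell, for each of the 12 libraries (squares replicate 1, circles replicate 2, triangles replicate 3), with the mean and SD of the 3 libraries of a group. The first batch (squares) has the highest mitochondrial shares, and second-batch PBS libraries hold 1.58 to 3.18% ribosomal RNA-like transcripts.

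The cells carried the markers of their label. As summed counts scaled to a common total (CPM, counts per 1e+06 UMIs), pooled over libraries, the level was 1605 for Pdgfra, 1251 for Lhfpl3, 1122 for C1ql1, a secreted ligand at synapses, 903 for the proteoglycan Vcan and 687 for Cspg4, which encodes the proteoglycan NG2. These markers were not unique to OPCs, since pericytes held Cspg4 at 226 CPM, progenitors held Vcan at 120 CPM and fibroblasts held Pdgfra at 55.6 CPM. At least 1 UMI of Pdgfra was found in 92.9% of cluster 9 cells and in 0.470% of oligodendrocytes, which had nearly the same median depth (7157 UMIs). The genes with the highest ratio of their level to that of the next type other than OPCs were Neu4, a sialidase, at 528 CPM, Gpr17 at 552 CPM, Lhfpl3 and C1ql1. The clustering used the same genes, so these levels are a description of the cells and not a test.

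**Figure D2:**
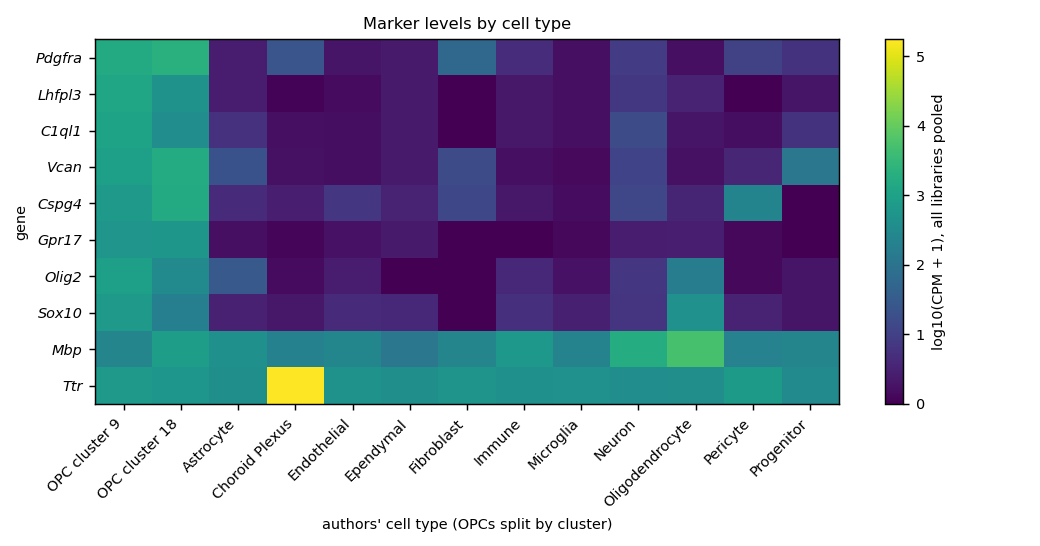
Level of OPC genes, the oligodendrocyte gene Mbp and the choroid plexus gene Ttr in each of the authors' cell types, with the OPCs split by cluster, on a log10(CPM + 1) colour scale over all libraries pooled. Pdgfra is at 1605 CPM in cluster 9, and Cspg4 is also seen in pericytes, at 226 CPM.

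The cluster 18 OPCs held the same markers at other levels and at much lower depth. Lhfpl3 (488 CPM against 1251 in cluster 9) and C1ql1 (376 against 1122) were lower. Cspg4 (1632 against 687), Vcan (1718 against 903) and Pdgfra (2088 against 1605) were higher. The median cell of cluster 18 had 1656 UMIs and 869.5 genes, with 16.3% mitochondrial UMIs against 4.03% in cluster 9 and 75.7% unspliced reads against 44.1%. Cluster 9 held between 69.0% (Cisplatin nonstim 1) and 100% (Cisplatin stim 2) of a library's OPCs. The clusters of OPCs thus differed in depth, in RNA composition and in marker levels.

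Cells of cluster 9 varied in their counts of mitotic genes and of Gpr17. Of 26 mitotic genes, 27 cells (3.71%) held 5 or more, and 4 of these had only 5 or 6, while 8 further cells held 3 or 4. No oligodendrocyte of 4677 reached 5, which allows a share of up to 0.0641%. The dividing cells numbered 18 of 456 in PBS (3.95%) and 9 of 272 in cisplatin libraries (3.31%). Cisplatin stim 1 had the highest share of the 12 libraries, 4 of 41 cells (9.76%), and Cisplatin nonstim 3 and Cisplatin stim 2, with 30 and 23 cells, had none. In PBS nonstim 3, 3 cells held 98.6% of the library's 1200 mitotic UMIs, so the mitotic level of that library rested on those cells. The dividing cells kept Pdgfra at 1688 CPM against 1602 in the other 701 cells, but had Gpr17 at 262 against 564 CPM and C1ql1 at 335 against 1155 CPM. At least 1 UMI of Gpr17 was found in 59.3% of the dividing and 80.6% of the other cells, at median depths of 5872 and 7277 UMIs. At least 3 UMIs of Gpr17 were found in 8 of the 27 dividing cells and in 389 of all 728 cells (53.4%), and no test was run on these counts. Cells without Gpr17 were shallow (147 cells, median 1623 UMIs), against a median of 8773 UMIs in cells with 3 or more. Enpp6, a marker of newly formed oligodendrocytes, was found in 5 of 728 cells (0.687%) against 26.3% of oligodendrocytes, and the commitment ligand Bmp4 was found in 14.3% of cluster 9 cells.

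Compared at 2000 UMIs per cell, which left out 115 shallower cells, the share of cells with Mki67 or Top2a, both needed for division, was 4.35% ± 3.45 (SD, n = 6) in PBS and 2.58% ± 3.88 in cisplatin libraries, against 6.46% and 5.46% before thinning. Oligodendrocytes had 0.733% at the same depth. The share with Gpr17 was 64.0% ± 6.49 in PBS and 53.2% ± 9.68 in cisplatin libraries (81.5% and 78.6% before thinning). It was 46.7%, 42.1% and 45.5% in the Cisplatin stim libraries, below the lowest of the other 9 libraries, PBS stim 2 at 52.5%. The Cisplatin stim libraries held only 41, 23 and 35 cells before the shallower ones were left out, so these shares rest on few cells. In summed counts, Gpr17 was not called in Cisplatin stim against Cisplatin nonstim (log2 fold change −0.16 ± 0.20, adjusted p = 0.962). No test was run on the shares.

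The share of cluster 9 OPCs among all cells of a library was lower after cisplatin on average, but the difference did not pass correction. It was 4.82, 5.59 and 3.89% in PBS nonstim, 5.89, 3.76 and 2.52% in PBS stim, 5.18, 1.59 and 2.70% in Cisplatin nonstim, and 3.71, 2.32 and 3.09% in Cisplatin stim. The groups overlapped, and Cisplatin nonstim 1 was as high as the PBS libraries. The mean was 4.41% ± 1.27 (SD, n = 6) in PBS and 3.1% ± 1.25 in cisplatin libraries. The difference of −1.31 percentage points had p = 0.0333 in a two-sided exact permutation test within batches, or 0.133 after Benjamini-Hochberg adjustment over the 4 comparisons of shares. Within batches it was −0.911 points (first) and −1.51 (second). Cisplatin nonstim minus PBS nonstim was −1.61 points (exact p = 0.333), PBS stim minus PBS nonstim −0.713 (exact p = 0.5) and Cisplatin stim minus Cisplatin nonstim −0.116 (exact p = 1). These 3 differences changed sign between batches. They were 0.359 (first) and −2.60 (second) for Cisplatin nonstim minus PBS nonstim, 1.07 and −1.60 for PBS stim minus PBS nonstim, and −1.47 and 0.562 for Cisplatin stim minus Cisplatin nonstim. With 3 libraries a group, that test cannot go below 0.167. A share falls when other cell types gain cells, so it gives no number of OPCs in the tissue.

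Cisplatin was associated with a change in the expression of a set of genes across both stimulation states. Counts were summed per library and fitted with edgeR's quasi-likelihood test with a term for batch, over 7639 genes that passed the filter on low counts, and genes with an adjusted p under 0.05 are called higher or lower. Of the genes tested, 106 were higher (1.39%) and 54 lower (0.707%) in the 6 cisplatin than in the 6 PBS libraries, averaged over stimulation (160 in all, 2.09%). The 6 cisplatin libraries all lay above the 6 PBS libraries for 59 genes (0.772%) and all below for 36 (0.471%). Genes below are given as CPM scaled by TMM factors, with log2 fold changes ± SE from the fit. The count of calls rested on single libraries, being 70 without Cisplatin nonstim 2, 92 without Cisplatin stim 2, 104 without PBS nonstim 2, 105 without PBS stim 3 and 105 without Cisplatin nonstim 3. With the ribosomal RNA-like share of each library as a covariate 28 genes were called, and without the batch term 46. Chst2, Aldoc, Htra1, Rbm3, Ptgfrn, Kcnip1, Mt1, Pcp4, Serf1 and Lars2 were called in every fit that tested them. Lars2, itself a ribosomal RNA-like transcript, was not tested in the fit that took those transcripts out of the counts. Of the other genes called below, each passed the threshold in fewer fits, and a gene named without a remark lost its call only with the ribosomal RNA-like share as a covariate, without the batch term or in the fit with DESeq2.

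Chst2 and Aldoc shared the smallest adjusted p. Chst2 encodes a sulfotransferase that adds sulfate to N-acetylglucosamine in glycans (chromosome 9, 95399292 to 95406722 of GRCm38, minus strand). It was at 268, 206 and 181 CPM in PBS nonstim, 221, 218 and 257 in PBS stim, 433, 384 and 441 in Cisplatin nonstim and 1212, 623 and 649.6 in Cisplatin stim. All 6 cisplatin libraries lay above all PBS libraries, and the 3 Cisplatin stim libraries lay above the 3 of Cisplatin nonstim. The change was log2 fold change 1.36 ± 0.12, adjusted p = 1.52e-10. Aldoc, the brain isoform of the glycolytic enzyme aldolase (chromosome 11, 78322968 to 78327781 of GRCm38, plus strand), was at 377, 246 and 153 CPM in PBS nonstim, 232, 198 and 238 in PBS stim, 646, 591 and 600 in Cisplatin nonstim and 714, 723 and 547 in Cisplatin stim. The cisplatin libraries again did not overlap with PBS (log2 fold change 1.42 ± 0.12, adjusted p = 1.52e-10). Aldoc is also an astrocyte marker. The summed level of the 7 astrocyte markers, which include Aldoc itself, was 1364 to 2080 CPM in PBS and 1584 to 2170 CPM in cisplatin libraries. Because Aldoc is part of it, this sum does not show whether other astrocyte RNA rose. Of the 4 markers tested, only Aldoc had a positive log2 fold change. Aldoc was called higher and 1 other marker lower, and the part of astrocyte RNA in the Aldoc result was not tested.

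Htra1, a secreted serine protease that cleaves matrix proteins (chromosome 7, 130936111 to 130985660 of GRCm38, plus strand), was at 71.4 to 187 CPM (median 104) in PBS and 204 to 974 CPM (median 308) in cisplatin libraries, without overlap, and its highest value was in Cisplatin stim 1. The change was log2 fold change 1.63 ± 0.15, adjusted p = 6.47e-10. Ptgfrn, a membrane protein that binds tetraspanins, was at 20.4 to 36.1 CPM (median 28.9) in PBS and 54 to 191 CPM (median 107) in cisplatin libraries (log2 fold change 1.83 ± 0.21, adjusted p = 8.77e-08). Kcnip1, a calcium-binding subunit of Kv4 potassium channels, was at 29.6 to 50.6 CPM (median 36.4) in PBS and 81.3 to 153 CPM (median 95.1) in cisplatin libraries (log2 fold change 1.40 ± 0.19, adjusted p = 3.27e-06). Neither gene overlapped between treatments. Plk5, a member of the polo-like kinase family with roles outside division, was at 3.48 to 17.8 CPM (median 4.62) in PBS and 15.5 to 47.6 CPM (median 41.6) in cisplatin libraries, with 1 PBS library above the lowest cisplatin library (log2 fold change 2.59 ± 0.39, adjusted p = 3.12e-05).

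Psap, Gm2a, Plpp3 and Fth1 were also among the named genes that were higher. Psap, the precursor of the saposins that activate lysosomal lipid hydrolases (chromosome 10, 60277627 to 60302597 of GRCm38, plus strand), was at 328 to 613 CPM (median 435) in PBS and 696 to 1048 CPM (median 784) in cisplatin libraries (log2 fold change 0.84 ± 0.11, adjusted p = 1.18e-06). Gm2a, the activator of ganglioside breakdown in the lysosome, was at 373 to 528 CPM (median 493) in PBS and 723 to 884 CPM (median 761) in cisplatin libraries (log2 fold change 0.70 ± 0.10, adjusted p = 7.31e-06). Both genes were higher in each cisplatin library than in any PBS library. Plpp3, which dephosphorylates lysophosphatidic acid at the cell surface, showed the same separation, with 453 to 572 CPM (median 514) in PBS and 663 to 1095 CPM (median 764) in cisplatin libraries (log2 fold change 0.64 ± 0.10, adjusted p = 5.77e-05). Fth1, the heavy chain of the iron store ferritin, was at 1117, 655 and 646 CPM in PBS nonstim, 1249.8, 1070.2 and 661 in PBS stim, 2379.8, 1137 and 944 in Cisplatin nonstim and 2794, 1340.1 and 949 in Cisplatin stim (log2 fold change 0.73 ± 0.11, adjusted p = 5.47e-05). Its level overlapped between treatments, and under cisplatin the first batch was higher than the second. Within batches the log2 difference was 1.13 (first) and 0.55 (second).

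**Figure D3:**
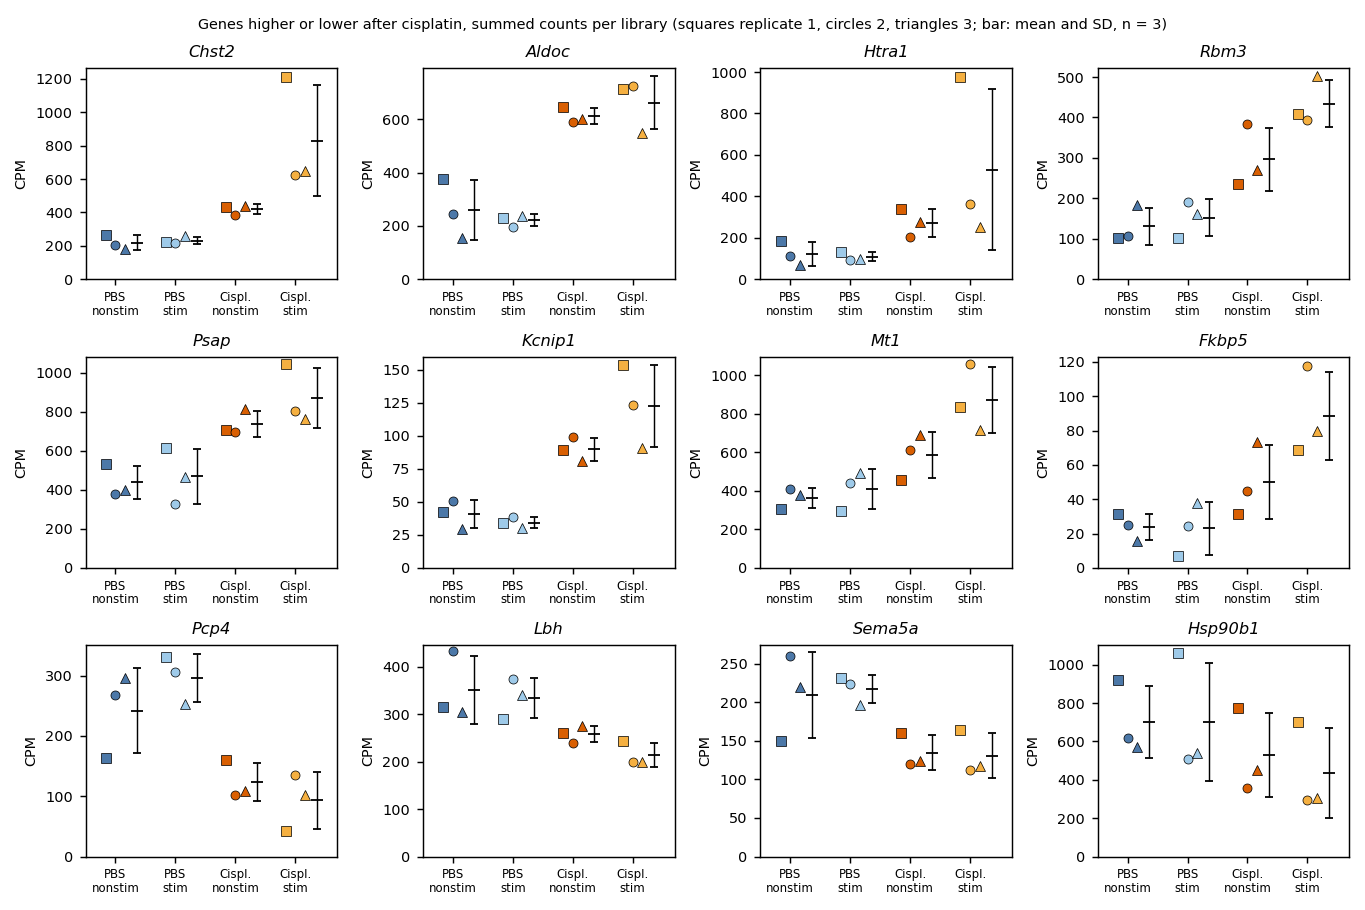
Level in CPM of 8 genes that were higher and 4 that were lower after cisplatin, in cluster 9 OPCs of each library (squares replicate 1, circles replicate 2, triangles replicate 3), with the mean and SD of the 3 libraries of a group. Chst2 lies between 181 and 268 CPM in the PBS libraries and between 384 and 1212 CPM in the cisplatin libraries, and Pcp4 lies below all PBS libraries in all cisplatin libraries.

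Of 32 OPC identity genes tested, 5 were higher and none lower, where 1.39% of all genes were higher and 0.707% lower. Of 24 matrix and adhesion genes 2 were higher, Bcan and Cspg5, and none lower. The OPC identity list had a median log2 fold change of 0.06 against −0.00 over all genes. The 5 given markers were not called. Their log2 fold changes were −0.03 ± 0.11 for Pdgfra (adjusted p = 0.939), 0.13 ± 0.10 for Cspg4 (0.58), 0.04 ± 0.09 for Lhfpl3 (0.89), 0.09 ± 0.11 for C1ql1 (0.764) and 0.23 ± 0.09 for Vcan (0.195). The sign for Pdgfra turned with several settings. Among the genes that rose, Cspg5, a transmembrane proteoglycan also called neuroglycan C, was at 3011 to 4003 CPM (median 3387) in PBS and 4011 to 4795 CPM (median 4409.8) in cisplatin libraries, without overlap (log2 fold change 0.37 ± 0.08, adjusted p = 0.00946), and its adjusted p was 0.062 without PBS nonstim 2. Bcan, which encodes the matrix proteoglycan brevican, was at 817 to 1238 CPM (median 938) in PBS and 1083 to 2000.4 CPM (median 1279) in cisplatin libraries (log2 fold change 0.47 ± 0.10, adjusted p = 0.00484). Matn4, a matrix adaptor protein, was at 538 to 894 CPM (median 634) in PBS and 829 to 1185 CPM (median 939) in cisplatin libraries (log2 fold change 0.51 ± 0.09, adjusted p = 0.000786). For both, PBS nonstim 1 lay within the range of the cisplatin libraries, and for Bcan PBS stim 1 did too. The transcription factors Olig1 (log2 fold change 0.34 ± 0.09, adjusted p = 0.0389) and Olig2 (log2 fold change 0.35 ± 0.10, adjusted p = 0.048), which specify the lineage, passed by a small margin. Olig1 lost its call without PBS nonstim 2 or 3, PBS stim 2 or 3, Cisplatin nonstim 2 or 3 or Cisplatin stim 2 (adjusted p 0.0679 to 0.144). Olig2 lost its call without PBS nonstim 1, 2 or 3, PBS stim 1 or 2, Cisplatin nonstim 2 or 3 or Cisplatin stim 1 or 2 (adjusted p 0.0532 to 0.171).

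None of 15 genes of committed precursors was called, and the smallest p was that of Mpzl1 (log2 fold change 0.43 ± 0.13, adjusted p = 0.0631). Of 12 myelin genes tested, Ptgds alone was called (log2 fold change 1.08 ± 0.17, adjusted p = 6.87e-05). A positive log2 fold change was seen for 10 of the 12, with a median of 0.33 against −0.00 over all genes. Of 29 lineage transcription factors 3 were higher, Olig1 and Olig2 among them, and 1 lower. Over all genes tested, 1.39% were higher and 0.707% lower. Notch genes moved in both directions. The Notch effector Hes1 (log2 fold change 0.50 ± 0.13, adjusted p = 0.0409) and the ligand Dll3 (log2 fold change 0.68 ± 0.19, adjusted p = 0.0477) were higher and the effector Hes5 (log2 fold change −0.47 ± 0.13, adjusted p = 0.0404) was lower, so 2 of 18 rose and 1 fell. These are close to the threshold. Hes1 was not called without PBS nonstim 1 or 2, PBS stim 1, 2 or 3, Cisplatin nonstim 2 or 3 or Cisplatin stim 1 or 3 (adjusted p 0.0542 to 0.142). Dll3 was not called without PBS nonstim 1 or 2, PBS stim 2 or 3, Cisplatin nonstim 2 or 3 or Cisplatin stim 1, 2 or 3 (adjusted p 0.0612 to 0.228). Hes5 was not called without PBS nonstim 2 or 3, PBS stim 1 or 3, Cisplatin nonstim 1, 2 or 3 or Cisplatin stim 2 or 3 (adjusted p 0.058 to 0.199). Fabp7, a fatty acid binding protein of progenitors, was lower (log2 fold change −0.73 ± 0.15, adjusted p = 0.00294). It was at 553, 1228 and 1267 CPM in PBS nonstim, 913, 1297 and 1046 in PBS stim, 760.2, 645 and 468 in Cisplatin nonstim and 857, 529 and 504 in Cisplatin stim. Within batches the log2 difference was 0.18 (first) and −1.18 (second).

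The gene with the lowest adjusted p among those that fell, apart from ribosomal RNA-like and histone transcripts, was Pcp4, a small regulator of calmodulin (chromosome 16, 96467606 to 96525793 of GRCm38, plus strand). It was at 163, 267 and 296 CPM in PBS nonstim, 330.3, 306 and 253 in PBS stim, 160.3, 102 and 108 in Cisplatin nonstim and 42.3, 135 and 103 in Cisplatin stim. Every cisplatin library lay below every PBS library, by a narrow gap between Cisplatin nonstim 1 and PBS nonstim 1 (log2 fold change −1.28 ± 0.16, adjusted p = 9e-07). Of the last 500 bases of its transcripts, 30.6% of the 31-base words also occur in transcripts of the neighbouring gene Igsf5, so reads could be split between them. Sema5a, a transmembrane axon guidance protein, was at 149 to 260.2 CPM (median 222) in PBS and 112 to 164 CPM (median 122) in cisplatin libraries (log2 fold change −0.70 ± 0.14, adjusted p = 0.00379). Lbh, a transcriptional cofactor, was lower in each cisplatin library (log2 fold change −0.56 ± 0.12, adjusted p = 0.00505), and Mfge8, which bridges apoptotic cells to phagocytes, was lower with overlap (log2 fold change −0.66 ± 0.14, adjusted p = 0.00703) and had an adjusted p of 0.0501 without PBS stim 1.

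Genes that respond to glucocorticoids rose as far as they passed the test. Of 19 tested (1.39% of all genes were higher), 5 were higher (Mt1, Mt2, Fkbp5, Zbtb16 and Cdkn1a, the last also on the p53 list) and none lower, 16 had a positive log2 fold change and the median was 0.37. The metallothioneins Mt1 and Mt2 bind zinc and copper and are induced by metals as well as by glucocorticoids. Their promoters are shown because both genes were called and lie side by side, with matches to the pattern TGCNCNC in capitals on either strand. This pattern is broader than the core of metal response elements, so a match need not be such an element. The windows run from 250 bases before to 50 after the start of the RefSeq transcript (assembly GRCm38.p6), Mt1 at chr8:94178839-94179138 and Mt2 at chr8:94172368-94172667, both on the plus strand.

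Mt1: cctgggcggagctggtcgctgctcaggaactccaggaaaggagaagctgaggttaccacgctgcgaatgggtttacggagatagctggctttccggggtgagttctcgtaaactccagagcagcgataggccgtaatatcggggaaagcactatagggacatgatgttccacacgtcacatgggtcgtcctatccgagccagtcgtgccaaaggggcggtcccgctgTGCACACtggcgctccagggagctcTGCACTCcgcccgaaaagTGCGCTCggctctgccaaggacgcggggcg

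Mt2: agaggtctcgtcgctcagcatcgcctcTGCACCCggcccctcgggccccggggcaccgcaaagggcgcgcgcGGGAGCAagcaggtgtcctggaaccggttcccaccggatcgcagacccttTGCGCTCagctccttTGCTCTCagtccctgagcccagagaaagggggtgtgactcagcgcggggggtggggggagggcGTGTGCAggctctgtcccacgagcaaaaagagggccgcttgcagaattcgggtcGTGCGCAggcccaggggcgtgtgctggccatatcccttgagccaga

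The Mt1 window holds 3 such matches, all on the forward strand, and the Mt2 window 6, with 3 on each strand, and no matches overlap. Of 32851 RefSeq promoter windows of the same length, 51.0% hold at least 1 match, 7.10% hold at least 3 and 0.225% hold at least 6. Mt1 was at 308, 409 and 376 CPM in PBS nonstim, 296, 442 and 495 in PBS stim, 458, 612 and 689 in Cisplatin nonstim and 836, 1058 and 718 in Cisplatin stim. The Cisplatin stim libraries were the highest, and only Cisplatin nonstim 1 lay within the range of PBS (log2 fold change 0.88 ± 0.11, adjusted p = 5.43e-07). Mt2 was at 47.7 to 120.3 CPM (median 78.3) in PBS and 62.8 to 217 CPM (median 166) in cisplatin libraries (log2 fold change 0.88 ± 0.19, adjusted p = 0.00505). Fkbp5, a cochaperone of the glucocorticoid receptor (chromosome 17, 28399094 to 28517527 of GRCm38, minus strand), was at 31.2, 24.8 and 15.7 CPM in PBS nonstim, 6.81, 24.5 and 37.8 in PBS stim, 31.4, 45 and 73.5 in Cisplatin nonstim and 68.8, 118 and 79.8 in Cisplatin stim. All 3 Cisplatin stim libraries lay above PBS, and 1 Cisplatin nonstim library did not (log2 fold change 1.47 ± 0.26, adjusted p = 0.000515). Zbtb16, a transcriptional repressor, was at 4.13 to 14.3 CPM (median 9.93) in PBS and 8.26 to 45.6 CPM (median 35.9) in cisplatin libraries (log2 fold change 1.59 ± 0.40, adjusted p = 0.0241), and it lost its call without PBS nonstim 2 or 3, PBS stim 1, 2 or 3, Cisplatin nonstim 2 or 3 or Cisplatin stim 1, 2 or 3 (adjusted p 0.0549 to 0.191).

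The p53 target Cdkn1a, which encodes the cyclin-dependent kinase inhibitor p21 (chromosome 17, 29090976 to 29100727 of GRCm38, plus strand), was at 2.23, 8.26 and 17.4 CPM in PBS nonstim, 0, 24.5 and 22.7 in PBS stim, 4.96, 33 and 7.74 in Cisplatin nonstim and 68.8, 106 and 71.2 in Cisplatin stim. The 3 Cisplatin stim libraries lay above the other 9 (log2 fold change 1.53 ± 0.40, adjusted p = 0.0339). The call was lost without PBS nonstim 2, PBS stim 1, 2 or 3, Cisplatin nonstim 2 or Cisplatin stim 1 or 2 (adjusted p 0.051 to 0.463). At 2000 UMIs per cell, Cdkn1a was found in a mean of 2.96% ± 3.19 (SD, n = 6) of the cells of a PBS library. The mean over cisplatin libraries was 5.84% ± 3.99, and before thinning the means were 4.67% (PBS) and 15.6% (cisplatin). With all libraries pooled, Cdkn1a was at 112 CPM in the 27 dividing cells and 17.2 CPM in the other 701. It was found in 29.6% and 6.56% of these cells, and the part of dividing cells in the Cdkn1a result was not tested. Cdkn1a was the only one of 16 p53 targets tested that was called, where 1.39% of all genes were higher and 0.707% lower. The next, the apoptosis gene Bax, had log2 fold change 0.27 ± 0.11, adjusted p = 0.227. Of 20 DNA repair genes none was called, with a median of −0.09, and the smallest p was that of Rev3l, a polymerase that copies past damaged bases (log2 fold change −0.28 ± 0.12, adjusted p = 0.266). None of 11 S phase genes was called either. None of 17 G2 and M phase genes was called, although 16 had a negative log2 fold change with a median of −1.05. Their summed level was 3300 CPM in PBS nonstim 3, which rested on 3 cells, and 306 to 1583 CPM in the other 11 libraries. Of 9 replication-dependent histone genes, Hist1h4d (log2 fold change −1.84 ± 0.23, adjusted p = 7.29e-07), Hist1h1e (log2 fold change −1.13 ± 0.25, adjusted p = 0.00703) and Hist1h3e (log2 fold change −1.93 ± 0.46, adjusted p = 0.0141) were lower. Hist1h4d was at 44.6, 175 and 333 CPM in PBS nonstim, 34.1, 332 and 185 in PBS stim, 26.4, 63 and 31 in Cisplatin nonstim and 5.29, 52.9 and 94 in Cisplatin stim. As with the ribosomal RNA-like share, second-batch PBS libraries were the highest, and the part of that share in the histone result was not tested beyond the covariate, with which none of the 3 was called. Hist1h1e had an adjusted p of 0.0694 without Cisplatin nonstim 2, and Hist1h3e lost its call without PBS nonstim 3, PBS stim 2, Cisplatin nonstim 3 or Cisplatin stim 2 (adjusted p 0.0729 to 0.101). Most of the 3′ sequence of Hist1h1e and Hist1h3e is shared with other histone genes.

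Of 22 heat shock and cold-inducible genes tested, the cold-inducible Rbm3 and Cirbp were higher and 4 chaperones were lower. Over all genes, 1.39% were higher and 0.707% lower. Among the chaperones, Hsp90b1 was lower in each fit but those without the batch term and with the ribosomal RNA-like covariate. The median of the list was −0.28. Rbm3, a cold-inducible RNA-binding protein (chromosome X, 8138975 to 8145880 of GRCm38, minus strand), was at 103, 106 and 183 CPM in PBS nonstim, 102, 192 and 162 in PBS stim, 235, 384 and 271 in Cisplatin nonstim and 407, 394 and 501 in Cisplatin stim. Cisplatin libraries did not overlap with PBS (log2 fold change 1.37 ± 0.13, adjusted p = 1.3e-09). Cirbp was at 109 to 188 CPM (median 164) in PBS and 150.4 to 406 CPM (median 280.2) in cisplatin libraries (log2 fold change 0.83 ± 0.13, adjusted p = 8.87e-05). Hsp90b1, the chaperone of the endoplasmic reticulum, was at 508 to 1059 CPM (median 595) in PBS and 294 to 775 CPM (median 406) in cisplatin libraries (log2 fold change −0.59 ± 0.10, adjusted p = 0.000415), with higher values in the first batch under each treatment. The mitochondrial chaperonin genes Hspe1 (log2 fold change −0.48 ± 0.11, adjusted p = 0.014) and Hspd1 (log2 fold change −0.42 ± 0.12, adjusted p = 0.0491), which lie next to each other, were lower in every cisplatin than in any PBS library. The cytosolic chaperone Hsp90aa1 (log2 fold change −0.40 ± 0.11, adjusted p = 0.0381) overlapped. Hspe1 was not called without PBS stim 2, Cisplatin nonstim 2 or Cisplatin stim 1 (adjusted p 0.0525 to 0.07). Hspd1 lost its call whichever 1 of the 12 libraries was left out (adjusted p 0.0581 to 0.141), and Hsp90aa1 was not called without PBS nonstim 1 or 2, PBS stim 1 or 2, Cisplatin nonstim 1 or 3 or Cisplatin stim 1 or 2 (adjusted p 0.0591 to 0.144).

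Of 27 growth factor receptors and signalling genes 2 were higher and none lower, and of 37 neurotransmitter receptor and channel genes 2 were higher and 1 lower, where 2.09% of all genes were called. Mertk, a phagocytic receptor tyrosine kinase, was at 3.78 to 24.5 CPM (median 8.13) in PBS and 28.1 to 68.8 CPM (median 45.8) in cisplatin libraries, without overlap (log2 fold change 1.97 ± 0.35, adjusted p = 0.00051). Ackr3, a scavenging receptor of the chemokine CXCL12, was also called (log2 fold change 0.69 ± 0.19, adjusted p = 0.0429), but not without PBS nonstim 1 or 2, PBS stim 2 or 3, Cisplatin nonstim 2 or 3 or Cisplatin stim 1 or 3 (adjusted p 0.0639 to 0.128). Among receptors and channels, the AMPA receptor subunit Gria2 (log2 fold change 0.37 ± 0.09, adjusted p = 0.0227) and the GABA-A subunit Gabrb1 (log2 fold change 0.67 ± 0.17, adjusted p = 0.0241) were higher and the AMPA subunit Gria4 was lower (log2 fold change −0.47 ± 0.13, adjusted p = 0.0468). Gria2 lost its call without PBS nonstim 2 or 3, PBS stim 1 or 2, Cisplatin nonstim 2 or 3 or Cisplatin stim 1 (adjusted p 0.0525 to 0.111). Gabrb1 lost its call without PBS nonstim 1, PBS stim 2 or 3, Cisplatin nonstim 3 or Cisplatin stim 1 or 3 (adjusted p 0.0524 to 0.0973). Gria4 lost its call without PBS nonstim 2 or 3, PBS stim 1, 2 or 3, Cisplatin nonstim 2 or Cisplatin stim 1, 2 or 3 (adjusted p 0.0537 to 0.205). H2-K1, an MHC class I heavy chain, was at 53.7 to 74.9 CPM (median 60.7) in PBS and 96.8 to 132 CPM (median 99.8) in cisplatin libraries (log2 fold change 0.74 ± 0.16, adjusted p = 0.00505), and it was the only one of 14 interferon and MHC class I genes called. Of 21 glutathione and Nrf2 genes, Gpx4, which reduces lipid peroxides, was higher (log2 fold change 0.44 ± 0.12, adjusted p = 0.0433), but not without PBS nonstim 2 or 3, PBS stim 2 or 3, Cisplatin nonstim 2 or Cisplatin stim 1, 2 or 3 (adjusted p 0.0537 to 0.276). Of 12 Wnt and BMP targets, the BMP antagonist Nog was higher (log2 fold change 1.39 ± 0.37, adjusted p = 0.0361), but not without PBS nonstim 1, 2 or 3, PBS stim 1, 2 or 3, Cisplatin nonstim 2 or 3 or Cisplatin stim 1, 2 or 3 (adjusted p 0.0543 to 0.156). None of 24 immediate early genes, 23 cholesterol synthesis genes, 14 clock genes and 11 mTORC1 genes was called.

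**Figure D4:**
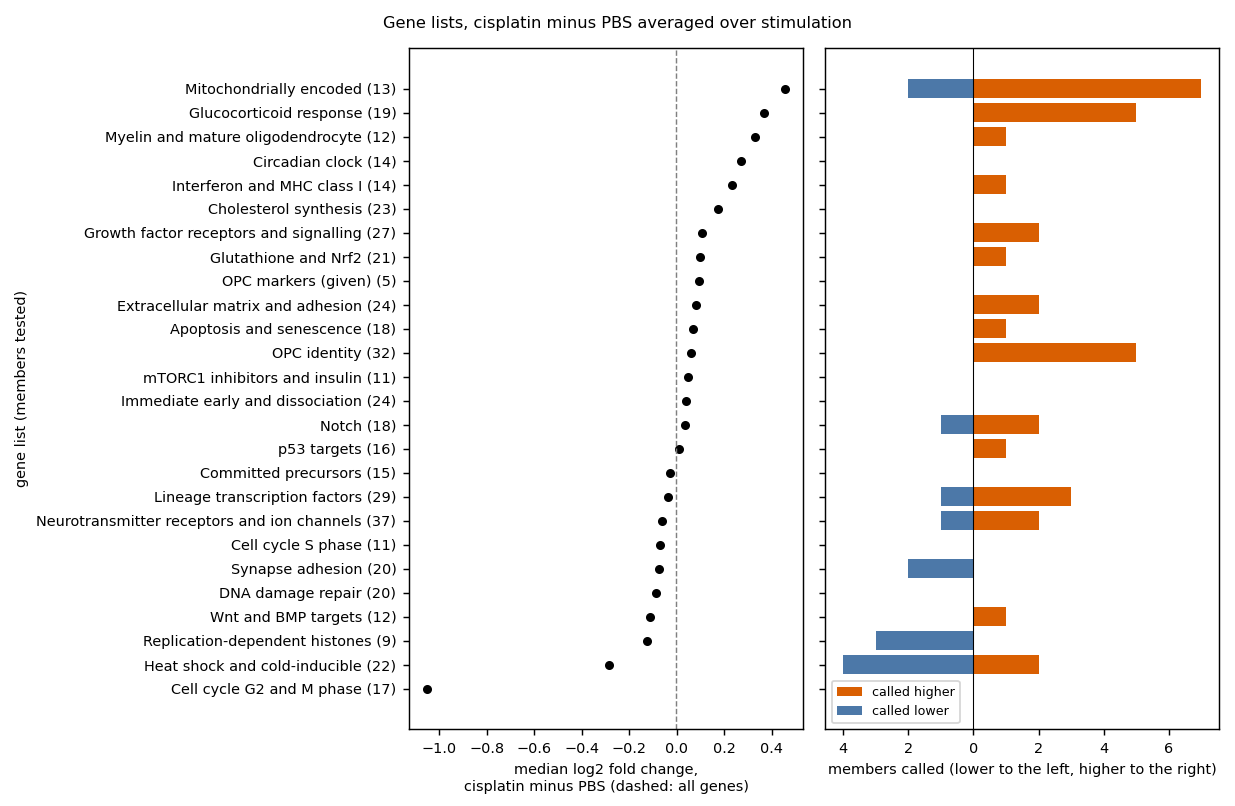
For each gene list, the median log2 fold change of its tested members in cisplatin minus PBS libraries averaged over stimulation (left, with the median of all genes dashed) and the number of members called higher or lower (right, edgeR, adjusted p under 0.05). Marker lists of other cell types and ribosomal RNA-like transcripts are left out. The glucocorticoid list has 5 of 19 members called higher, and the G2 and M phase list has the lowest median, −1.05, with none called.

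Mitochondrially encoded and ribosomal RNA-like transcripts were also among those called. Of 13 mitochondrially encoded genes, 7 were higher and 2 lower, where 1.39% of all genes were higher and 0.707% lower. The log2 fold change of mt-Nd1, a subunit of complex I, was 0.69 ± 0.10 (adjusted p = 1.04e-05) with 0.64 within the first and 0.73 within the second batch. All 3 ribosomal RNA-like transcripts were lower, and Lars2, the mitochondrial leucyl-tRNA synthetase gene, was at 265 to 1594 CPM (median 1136) in PBS and 159 to 282 CPM (median 215) in cisplatin libraries (log2 fold change −1.92 ± 0.18, adjusted p = 5.2e-10). With cells of at most 10% mitochondrial UMIs 163 genes were called, and 163 with the mitochondrial and ribosomal RNA-like transcripts taken out of the counts.

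In mice without stimulation, the comparison of Cisplatin nonstim with PBS nonstim asks for the effect of the drug alone, and it uses 6 of the libraries of the averaged comparison. It gave 29 calls, 19 higher (0.249%) and 10 lower (0.131%). Aldoc (log2 fold change 1.27 ± 0.17, adjusted p = 5.19e-06), Rbm3 (log2 fold change 1.22 ± 0.18, adjusted p = 5.45e-05) and Chst2 (log2 fold change 0.94 ± 0.16, adjusted p = 0.00109) were higher and held without each library in turn. Htra1 was higher (log2 fold change 1.12 ± 0.21, adjusted p = 0.00209), but not called without Cisplatin nonstim 3 (adjusted p 0.0738). Psap was higher (log2 fold change 0.76 ± 0.15, adjusted p = 0.00485), but not called without Cisplatin nonstim 2 or 3 (adjusted p 0.0578 to 0.123). Mt1 was higher (log2 fold change 0.67 ± 0.15, adjusted p = 0.0247), but not called without PBS nonstim 1, 2 or 3 or Cisplatin nonstim 2 or 3 (adjusted p 0.0614 to 0.213). Ptgds, a prostaglandin D synthase made here mostly by oligodendrocytes, had log2 fold change 1.47 ± 0.19, adjusted p = 5.19e-06, the same smallest p as Aldoc, and also held without each library. Ptgds was at 75.8, 68.2 and 55.8 CPM in PBS nonstim and 183, 168 and 221 in Cisplatin nonstim, without overlap. On the scale of unscaled CPM, Ptgds in microglia of the same libraries was 18.8 to 90.8 in PBS nonstim and 31.4 to 175 in Cisplatin nonstim, and oligodendrocytes held 8213 CPM or more in every library. The summed oligodendrocyte markers in cluster 9 were 345 to 847 CPM in PBS nonstim and 459 to 987 CPM in Cisplatin nonstim, and their part in the result was not tested.

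Among the 10 genes that were lower were Lars2 (log2 fold change −1.89 ± 0.24, adjusted p = 5.19e-06), Hist1h4d (log2 fold change −1.92 ± 0.31, adjusted p = 0.000347), Pcp4 (log2 fold change −0.89 ± 0.21, adjusted p = 0.0386) and Il1rapl1 (log2 fold change −0.85 ± 0.19, adjusted p = 0.0247), a postsynaptic adhesion protein. Il1rapl1 was at 154, 169 and 174 CPM in PBS nonstim and 97.5, 87 and 85.2 in Cisplatin nonstim, so the libraries did not overlap, and its call was lost without PBS nonstim 2 or 3 or Cisplatin nonstim 2 or 3 (adjusted p 0.0615 to 0.241). The call of Pcp4 was lost without PBS nonstim 2 or 3, PBS stim 1 or Cisplatin nonstim 2 or 3 (adjusted p 0.0636 to 0.645). Cenpf, a kinetochore protein, was also called (log2 fold change −4.48 ± 1.06, adjusted p = 0.0429), at 0, 18.6 and 246 CPM in PBS nonstim and 3.31, 3 and 0 in Cisplatin nonstim. In PBS nonstim 3 the 3 dividing cells held 98.6% of the mitotic UMIs, and without that library the adjusted p was 0.681. Ttr, the thyroid hormone carrier of the choroid plexus, was at 6.69, 87.8 and 145 CPM in PBS nonstim and 459, 6293 and 221 in Cisplatin nonstim (log2 fold change 4.98 ± 0.65, adjusted p = 5.19e-06). In microglia, Ttr was 16.3, 109 and 120 CPM (unscaled) in PBS nonstim and 787, 1599 and 253 in Cisplatin nonstim, so both cell types were highest in the same group. The 6 choroid plexus markers, which include Ttr, summed to 375 to 2130 CPM in PBS and 577 to 6986 CPM in cisplatin OPC libraries. Ttr alone reached 1586 CPM in PBS and 6293 CPM in cisplatin libraries, so the highest sums were mostly Ttr. Of the markers too low to test, Folr1 had 11 of 12 UMIs in Cisplatin nonstim 2, Kcne2 3 of 3, Kl 5 of 12 and Clic6 4 of 7. The part of choroid plexus RNA in the Ttr result was not tested. Leaving out Cisplatin nonstim 2 gave an adjusted p of 0.0553 for Ttr. Of the 20 genes called in this comparison that were followed through the alternatives, 6 held without each library in turn. Leaving out Cisplatin nonstim 2 gave 9 calls, leaving out Cisplatin nonstim 3 gave 13, and leaving out PBS nonstim 3 gave 17. Over all genes, libraries did not overlap for 7.06% (all higher) and 6.82% (all lower).

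Stimulation of cisplatin-treated mice gave 7 calls (0.0916%), 4 higher (0.0524%) and 3 lower (0.0393%), in Cisplatin stim against Cisplatin nonstim. This comparison shares the Cisplatin nonstim libraries with the one before. Chst2 was higher (log2 fold change 0.96 ± 0.16, adjusted p = 0.0041), and its 12 values are given above. Within batches the log2 difference was 1.48 (first) and 0.63 (second), and the call was lost without Cisplatin nonstim 1 or Cisplatin stim 1 (adjusted p 0.162 to 0.198). Cdkn1a was higher in all 3 Cisplatin stim libraries, at 68.8, 106 and 71.2 CPM against 4.96, 33 and 7.74 (log2 fold change 2.38 ± 0.49, adjusted p = 0.0283). It lost its call without Cisplatin nonstim 1 or 3 or Cisplatin stim 1 or 2 (adjusted p 0.212 to 0.439). Bc1, a noncoding RNA of neurons, was at 419.8, 210 and 252 CPM in Cisplatin nonstim and 794, 647 and 567 in Cisplatin stim (log2 fold change 1.18 ± 0.22, adjusted p = 0.0114). The call was lost without Cisplatin nonstim 2 or 3 or Cisplatin stim 2 (adjusted p 0.058 to 0.217). Eno1b, annotated as an enolase and sharing 87.9% of the 31-base words of its last 500 bases with other genes, chiefly Eno1, was at 13.2, 21 and 27.1 CPM in Cisplatin nonstim and 15.9, 64.7 and 162 in Cisplatin stim (log2 fold change 1.99 ± 0.43, adjusted p = 0.0451), and its call was lost without PBS stim 1, Cisplatin nonstim 1, 2 or 3 or Cisplatin stim 3 (adjusted p 0.0517 to 0.8).

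The genes that were lower with stimulation were Polr2l, Ptgds and Ttr. Polr2l, a small subunit shared by the RNA polymerases, was at 99.2, 102 and 135 CPM in Cisplatin nonstim and 52.9, 35.3 and 28.5 in Cisplatin stim (log2 fold change −1.52 ± 0.30, adjusted p = 0.0233). Its groups did not overlap, and the call was lost without Cisplatin nonstim 2 or 3 or Cisplatin stim 2 or 3 (adjusted p 0.0915 to 0.244). Ptgds was at 183, 168 and 221 CPM in Cisplatin nonstim and 95.3, 82.3 and 71.2 in Cisplatin stim (log2 fold change −1.19 ± 0.23, adjusted p = 0.0114), again without overlap. Its call was lost without Cisplatin nonstim 3 or Cisplatin stim 2 or 3 (adjusted p 0.0508 to 0.141). In microglia, Ptgds (unscaled) was 175, 77.8 and 31.4 CPM in Cisplatin nonstim and 58.2, 40.4 and 53.3 in Cisplatin stim. Ttr was at 459, 6293 and 221 CPM in Cisplatin nonstim and 132, 447 and 382 in Cisplatin stim, with overlap (log2 fold change −2.86 ± 0.62, adjusted p = 0.0451), and its call was lost without PBS stim 1, Cisplatin nonstim 1 or 2 or Cisplatin stim 2 or 3 (adjusted p 0.0561 to 0.947). Calls in this comparison fell to 4 when Cisplatin nonstim 1 was left out, to 3 when either Cisplatin nonstim 2 or 3 was, and to 2 when Cisplatin stim 2 was. Over all genes, libraries did not overlap for 5.03% (all higher) and 4.65% (all lower).

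Stimulation of PBS mice gave no call (0%) with edgeR. At an unadjusted p under 0.05 there were 308 genes, DESeq2 called 0 and limma-voom 1. Mbp, a major myelin protein, had the smallest adjusted p (log2 fold change 1.04 ± 0.20, adjusted p = 0.051), at 326, 82.6 and 99.3 CPM in PBS nonstim and 579, 283 and 94.4 in PBS stim. The groups overlapped, and the first batch was higher than the second in both. In microglia Mbp was 412, 101 and 118 CPM (unscaled) in PBS nonstim and 502, 144 and 107 in PBS stim. Mbp passed the threshold under several alternative settings, among them libraries of at least 30 cells. The number of calls reached 6 without PBS nonstim 3 and 4 without PBS nonstim 2.

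The effect of stimulation differed between cisplatin and PBS mice for 4 genes (0.0524%) by the interaction term, with 1 difference above 0 (0.0131%) and 3 below (0.0393%). Gpnmb, a glycoprotein of lysosomes and melanosomes, had a log2 difference of effects of 2.48 ± 0.50, adjusted p = 0.0299. It was at 109, 49.6 and 48.8 CPM in PBS nonstim, 34.1, 24.5 and 22.7 in PBS stim, 34.7, 45 and 27.1 in Cisplatin nonstim and 179.9, 35.3 and 34.2 in Cisplatin stim. Cisplatin stim 1 stood apart from the other cisplatin libraries. Polr2l had a log2 difference of effects of −1.85 ± 0.38, adjusted p = 0.0299, and the Cisplatin stim libraries were below the other 9. The histone gene Hist1h2ap (log2 difference of effects of −3.45 ± 0.66, adjusted p = 0.0231) and Ttr (log2 difference of effects of −5.57 ± 0.91, adjusted p = 0.00265) varied widely within groups. Hist1h2ap was at 31.2, 26.8 and 112 CPM in PBS nonstim, 106, 222 and 404 in PBS stim, 81, 552 and 54.2 in Cisplatin nonstim and 15.9, 11.8 and 214 in Cisplatin stim. None of these 4 calls held without each library in turn, and neither DESeq2 nor limma-voom called any gene for this term. The number of calls was 0 without PBS stim 3, 1 without PBS stim 1, Cisplatin nonstim 2 or Cisplatin stim 1, 2 without PBS stim 2, Cisplatin nonstim 3 or Cisplatin stim 2, and 7 without PBS nonstim 2.

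The cisplatin effect in cluster 9 OPCs was compared with that in oligodendrocytes (4677 cells) and astrocytes (2622 cells) of the same libraries by testing the difference itself, with the library as a block. It differed from oligodendrocytes for 290 of 7639 genes (3.8%), 187 with a higher (2.45%) and 103 with a lower (1.35%) fold change in OPCs. Of the 160 genes called in OPCs, 35 differed. Chst2 had a log2 fold change of 1.36 ± 0.12 in OPCs, a log2 fold change of −0.43 ± 0.13 (adjusted p = 0.024) in oligodendrocytes, and a log2 fold change of −0.09 ± 0.10 (adjusted p = 0.683) in astrocytes. The difference was 1.83 ± 0.15, adjusted p = 5.27e-16 from oligodendrocytes and 1.45 ± 0.15, adjusted p = 1.54e-09 from astrocytes. In unscaled CPM, Chst2 was 14.8 to 38.0 in oligodendrocytes and 370 to 619 in astrocytes over the 12 libraries.

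Gng11, Marcksl1 and Pmp22 were higher in OPCs and lower in oligodendrocytes. These genes and Mfsd2a were chosen after their values in the test of the difference were seen. Gng11, a G protein gamma subunit, had 0.61 ± 0.16 in OPCs (adjusted p = 0.0333) and a log2 fold change of −1.06 ± 0.11 (adjusted p = 9.51e-07) in oligodendrocytes, a difference of 1.64 ± 0.16, adjusted p = 2.15e-12. The OPC call of Gng11 was lost without PBS nonstim 2, PBS stim 1, 2 or 3, Cisplatin nonstim 1, 2 or 3 or Cisplatin stim 3 (adjusted p 0.0523 to 0.445). Marcksl1, a regulator of actin, had 0.50 ± 0.11 in OPCs (adjusted p = 0.00505) and a log2 fold change of −0.55 ± 0.09 (adjusted p = 0.000169) in oligodendrocytes, a difference of 1.06 ± 0.13, adjusted p = 2.57e-09. Pmp22, a membrane protein of myelinating cells, was at 68 to 106 CPM (median 76.5) in PBS and 112 to 194 CPM (median 148) in cisplatin OPC libraries (log2 fold change 0.89 ± 0.15, adjusted p = 0.000127), without overlap, and had a log2 fold change of −0.51 ± 0.14 (adjusted p = 0.0107) in oligodendrocytes. The difference was 1.40 ± 0.18, adjusted p = 4.53e-08. Olig2 differed by 0.57 ± 0.12, adjusted p = 0.00165 from oligodendrocytes, in which it had a log2 fold change of −0.20 ± 0.11 (adjusted p = 0.2).

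Cdkn1a, Fkbp5 and Mfsd2a rose less in OPCs than in oligodendrocytes, whereas the difference for Mt2 did not pass (−0.11 ± 0.20, adjusted p = 0.87). Cdkn1a had a log2 fold change of 5.19 ± 0.35 (adjusted p = 6.43e-09) in oligodendrocytes, and the difference of OPCs from them was −3.33 ± 0.45, adjusted p = 1.14e-07. In unscaled CPM, oligodendrocytes held it at 0.404 to 6.58 in PBS, 16.2 to 46.5 in Cisplatin nonstim and 246 to 920 in Cisplatin stim libraries. Fkbp5 had a log2 fold change of 2.76 ± 0.23 (adjusted p = 7.94e-08) in oligodendrocytes and a log2 fold change of 3.38 ± 0.35 (adjusted p = 2.9e-07) in astrocytes, with differences of −1.15 ± 0.30, adjusted p = 0.0133 and −1.84 ± 0.45, adjusted p = 0.0346. Mfsd2a, a lysophospholipid transporter, had a log2 fold change of 2.31 ± 0.23 (adjusted p = 7.95e-07) in oligodendrocytes and 0.51 ± 0.13 in OPCs, a difference of −1.78 ± 0.22, adjusted p = 1.02e-08, and lost its OPC call without PBS nonstim 1, PBS stim 1 or 3, Cisplatin nonstim 2 or 3 or Cisplatin stim 1 or 2 (adjusted p 0.0555 to 0.163). By contrast, Htra1 and Rbm3 rose in both lineage stages, and their difference did not pass (0.10 ± 0.16, adjusted p = 0.863 for Htra1, −0.33 ± 0.16, adjusted p = 0.299 for Rbm3).

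Against astrocytes, 44 of 7639 genes differed (0.576%), 32 with a higher (0.419%) and 12 with a lower (0.157%) fold change in OPCs, among them 24 of the 160 genes called in OPCs. Htra1 had a log2 fold change of 0.03 ± 0.10 (adjusted p = 0.91) in astrocytes, a difference of 1.61 ± 0.16, adjusted p = 1.54e-09. Mt2 had a log2 fold change of −0.12 ± 0.13 (adjusted p = 0.668) in astrocytes, a difference of 1.08 ± 0.20, adjusted p = 0.00139. Aldoc rose in both, by 1.42 ± 0.12 in OPCs and with a log2 fold change of 0.52 ± 0.12 (adjusted p = 0.00875) in astrocytes, and it rose more in OPCs (difference 0.92 ± 0.14, adjusted p = 2.32e-05). Rbm3 had a log2 fold change of 1.12 ± 0.12 (adjusted p = 2.9e-07) in astrocytes, and its difference did not pass (0.25 ± 0.16, adjusted p = 0.63). For stimulation in cisplatin mice, 13 genes differed from oligodendrocytes (0.17%) and 1 from astrocytes (0.0131%).

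**Figure D5:**
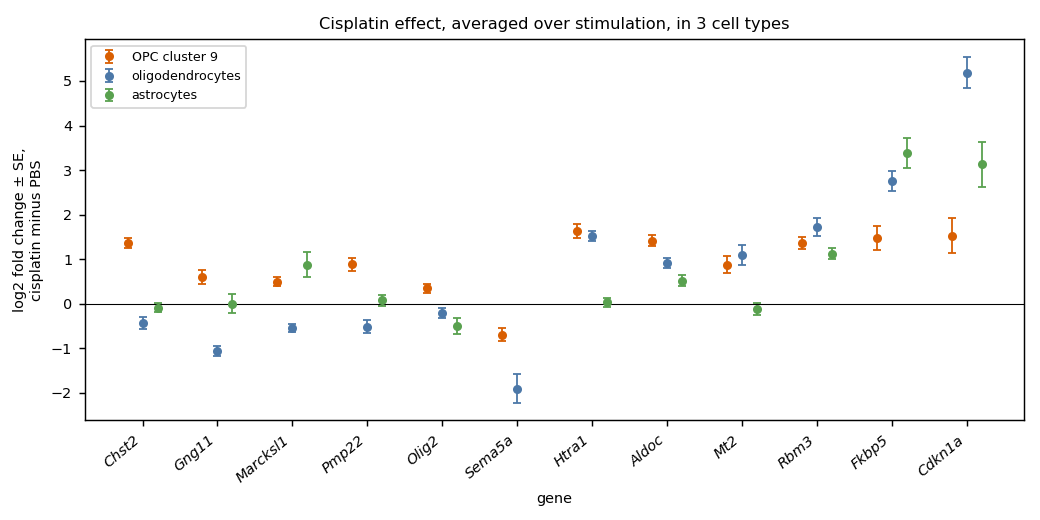
Log2 fold change ± SE of 12 genes in cisplatin minus PBS libraries, averaged over stimulation, in cluster 9 OPCs, oligodendrocytes and astrocytes. Sema5a has no value in astrocytes. Chst2 has 1.36 in OPCs and values below 0 in both other types, and Cdkn1a has its highest value, 5.19, in oligodendrocytes.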

How the data were processed

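Single-cell libraries from hippocampus were made with droplet 3′ chemistry, per the labels' protocols, and per the submitters' processing notes the tools included Cell Ranger 5.0.0 and Scanpy, with mm10 as the build. For doublet removal, cell filters and clustering the settings were not given in the sources used here. Raw UMI counts per cell and gene were deposited for 19834 cells and 32285 genes, with a table of cell type, cluster, library, the authors' doublet score and, as a signal with decimals, the authors' total per cell.

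Counts of cluster 9 cells were summed per library (180181 to 996296 UMIs, at least 10 cells required). They were tested in R 4.3.3 with edgeR 4.0.16 (TMM scaling, filterByExpr, quasi-likelihood test, group and batch terms) and Benjamini-Hochberg adjustment over all 7639 genes, with 0.05 as threshold. DESeq2 1.42.0 and limma 3.58.1 (voom) were alternatives. CPM of a library used TMM-scaled totals unless called unscaled. The labels do not say that same-numbered libraries share animals, and the main fit did not pair them. All p-values measure the spread between libraries. Replicate pairs differed beyond sampling noise. Limits of shares and counts cover counting error only, at 3 counts for a count of 0. Shares of cells with a UMI were compared after thinning to 2000 UMIs per cell.

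Members and gene lists were chosen with earlier results of these data known. Named genes were, per comparison, up to 15 called genes in each direction with the smallest adjusted p (every call where there were under 10), called list members, the 2 members of each list with the smallest p, and the 5 given markers. A selection is printed, and some items are not reported here. The test of shares averaged over stimulation was added after the data were seen. Overlapping 3′ ends were checked as shared 31-base words in the last 500 bases of transcripts.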

Additional observations from a re-analysis of the deposited data

Results flagged for a closer look

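The effect of stimulation differed between cisplatin and PBS mice for 4 genes, by the interaction term of edgeR's quasi-likelihood test. The log2 difference was 2.48 for Gpnmb, −1.85 for Polr2l, −3.45 for Hist1h2ap and −5.57 for Ttr. For Gpnmb, PBS nonstim 1 and Cisplatin stim 1 were the highest libraries, both of the first batch. For Ttr, microglia of the same libraries also varied widely, from 2.54 to 1599 unscaled CPM, and the part of free RNA in the result was not tested.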

How the results depend on the processing

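Of 87 called results for single genes, none turned its direction under any alternative, 39 held without each library in turn, and 57 lost their call with the ribosomal RNA-like share as a covariate, 56 without the batch term and 37 with DESeq2. For cisplatin averaged over stimulation, 160 calls became 63 with DESeq2, 46 without the batch term, 28 with the ribosomal RNA-like covariate and 92 with libraries of at least 30 cells, and 70 to 236 without 1 library. For Cisplatin nonstim minus PBS nonstim, 29 calls became 12 with DESeq2, 69 without a low count filter, 6 without the batch term, 67 in the second batch only, 15 with the ribosomal RNA-like covariate, 91 without both first-batch cisplatin libraries (chosen after seeing the data), and 9 to 41 without 1 library. For stimulation in cisplatin mice, 7 calls became 2 with DESeq2, 3 with limma-voom, 20 without a low count filter, 0 without the batch term, 4 with all OPCs, 2 with libraries of at least 30 cells, and 2 to 10 without 1 library. For stimulation in PBS mice, 0 calls became 1 with limma-voom, 1 with RLE size factors, 16 without a low count filter, and 2 each with at least 10 counts in 6 libraries, the ribosomal RNA-like covariate, libraries of at least 30 cells, both first-batch cisplatin libraries left out, and mitochondrial and ribosomal RNA-like transcripts taken out (the last 2 chosen after seeing the data), and 0 to 6 without 1 library. For the interaction, 4 calls became 0 with DESeq2, 0 with limma-voom, 12 without a low count filter, 0 without the batch term, 1 with at most 10% mitochondrial UMIs, 1 with all OPCs, 2 with libraries of at least 30 cells, 2 with median UMIs as a covariate (chosen after seeing the data), and 0 to 7 without 1 library.

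Correlations of same-numbered deviations from the group means were 0.263, 0.0858 and 0.141 in PBS and 0.160, −0.00649 and −0.0346 in cisplatin groups. With 3 libraries a group and replicate 1 always in the first batch, they cannot settle whether the samples were paired. With the replicate block the calls were 188 for averaged cisplatin, 35 for Cisplatin nonstim minus PBS nonstim, 6 and 2 for stimulation in cisplatin and PBS mice, and 4 for the interaction.

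The share difference for stimulation in cisplatin mice turned to 0.346 points among oligodendrocyte and OPC types, 0.374 with at most 10% mitochondrial UMIs and 0.562 in the second batch only, with −0.611 to 0.468 without 1 library (0.00893 without Cisplatin nonstim 3). For stimulation in PBS mice it turned to 0.536 among oligodendrocyte and OPC types, with −1.34 to 0.0261 without 1 library. It was −2.16 to −0.822 for Cisplatin nonstim minus PBS nonstim and −1.58 to −0.940 for both cisplatin groups. Without thinning, the mean share of cells with Gpr17 was 81.5% over PBS and 78.6% over cisplatin libraries. The mean share with Cdkn1a was 15.6% over cisplatin libraries. Pdgfra turned to 0.000768 with all OPCs, 0.18 with the ribosomal RNA-like covariate and 0.0319 with libraries of at least 30 cells, with −0.18 to 0.0443 without 1 library, and C1ql1 to −0.216 with that covariate. The cause of these changes was not tested. Low counts limit precision, since the smallest library summed 23 cells.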
